A study of Mus musculus with 6 samples.

Results

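The microRNA (miRNA) content of mouse bone marrow GMLPs carrying MLL-ENL was described on its own, from the 3 ME libraries of a series of 6. GMLP is the labels' name for a sorted progenitor population of the bone marrow, and MLL-ENL is a leukaemia fusion gene that joins part of a histone methyltransferase to a transcription elongation factor. All 3 libraries share the MLL-ENL genotype and a 3 day culture with DOX (doxycycline, a drug that controls tetracycline-responsive transgenes). The labels do not say which promoter drives the fusion, whether cells of several mice were pooled, or whether each library is a mouse or a culture of its own, so the spread given here may be technical. The members are the 1184 miRNA rows of the deposited table of 1452 rows. The 268 piRNA rows were left out, and the libraries of the other genotype were not analysed here. With 1 group of 3 libraries no test was run, and every value below is a description.

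An miRNA gene is transcribed into a long precursor that is cut to a hairpin and then to a duplex of a 5p and a 3p strand. One strand is usually kept in an Argonaute protein, and its seed, the bases next to its 5′ end, pairs with target mRNAs, so miRNAs with the same seed form a family. In blood cells miR-223 and miR-142 are known as markers of myeloid and haematopoietic identity, let-7 is known as a family of differentiated cells, and the miR-17-92 cluster as a growth-promoting cluster in leukaemia and lymphoma. Several miRNAs lie in Hox gene clusters, whose genes are classic targets of MLL fusions.

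The libraries held 4778027 to 5528960 reads, recovered as whole numbers from the deposited signal, of which 4760764 to 5510509 were miRNA reads. A share below is a percentage of the miRNA reads of 1 library, given as mean ± SD (n = 3). Reads are not molecules: ligation and amplification differ with sequence, and the sources used here do not give the treatment of molecular identifiers. A low level could be fewer cells with an miRNA or less of it per cell, which cannot be told apart in bulk RNA. Libraries are called 001, 002 and 003 after the column names, which do not give the replicate numbers of the labels. Library 003 stood apart from the other two, as described with the spread.

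The mature sequences of the leading miRNAs are shown first because miRNAs with 1 shared seed, GAGGUAG, held 26.6% of the reads. Sequences and positions are from RefSeq (GRCm38.p6), which held 1003 of the 1184 miRNAs and 98.0% of the reads. Capitals mark the seed, bases 2 to 8. The first lines are let-7 members with the seed GAGGUAG, then miR-15/16 members with AGCAGCA.
let-7f-5p: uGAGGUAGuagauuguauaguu
let-7i-5p: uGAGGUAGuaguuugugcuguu
let-7a-5p: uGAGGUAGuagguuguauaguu
let-7c-5p: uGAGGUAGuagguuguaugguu
miR-16-5p: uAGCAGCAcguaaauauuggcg
miR-15b-5p: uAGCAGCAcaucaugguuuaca
miR-322-5p: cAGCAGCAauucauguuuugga
The next lines are members of the miR-17-92 type clusters. The seed AAAGUGC is shared by the first group and AUUGCAC by the second.
miR-93-5p: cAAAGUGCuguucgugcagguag
miR-20a-5p: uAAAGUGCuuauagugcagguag
miR-17-5p: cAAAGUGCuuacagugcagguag
miR-25-3p: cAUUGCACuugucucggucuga
miR-92a-3p: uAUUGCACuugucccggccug
The last lines are abundant miRNAs with a seed of their own, and both strands of miR-142a, each of which was among the 20 most abundant.
miR-223-3p: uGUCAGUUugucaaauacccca
miR-191-5p: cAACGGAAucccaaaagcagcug
miR-21a-5p: uAGCUUAUcagacugauguuga
miR-142a-3p: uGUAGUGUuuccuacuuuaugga
miR-142a-5p: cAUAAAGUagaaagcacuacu

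Those with a single gene lie at named loci. The bases of miR-223-3p are at chrX:96242884-96242905 on the plus strand, in an exon of the antisense transcript F630028O10Rik in the GENCODE annotation. miR-142a-3p lies at chr11:87756903-87756925 on the plus strand, in an intron of Mir142hg. miR-21a-5p lies at chr11:86584120-86584141 on the minus strand, in an exon of Vmp1, and let-7i-5p at chr10:122985698-122985719 on the minus strand, in an exon of the pseudogene D630033A02Rik. miR-93-5p and miR-25-3p lie at chr5:138165574-138165596 and chr5:138165332-138165353, both on the minus strand inside Mcm7, which encodes a subunit of the replicative helicase.

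The repertoire was concentrated in a few miRNAs. The most abundant, miR-16-5p, held 13.1% ± 0.264 of the miRNA reads, the first 10 held 58.1% ± 0.459, and the first 20 held 75.7% ± 0.134. In each library 8 miRNAs made up 50% of the reads, and 38 miRNAs (38 to 39 by library) made up 90%. At the other end, 747 miRNAs had at least 1 read in all 3 libraries, 438 had at least 10 and 248 had at least 100. The 936 miRNAs that did not reach 100 reads in all 3 libraries held 0.189% of the reads together. Among these, 121 miRNAs had no read in any of the 3 libraries; with 3 reads as the limit that a count of 0 allows, their share lay below 5.44e-05% to 6.3e-05% per library, which covers counting error only.

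miR-16-5p, known from human cells for restraining cyclins and BCL2, held 13.0%, 13.0% and 13.4% in libraries 001, 002 and 003. let-7f-5p, a let-7 member with known targets among RAS and HMGA2 mRNAs, held 8.64%, 9.10% and 9.46%, and let-7i-5p held 6.73%, 7.16% and 7.25%. miR-16-5p was first and let-7f-5p second in every library, without overlap. miR-223-3p, a myeloid miRNA that restrains granulocyte production and activation, held 7.54%, 6.74% and 6.19%. Library 001 had the most miR-223-3p and 003 the least, so that miR-223-3p was above let-7i-5p in 1 library and below it in the other two. miR-142a-3p, a haematopoietic miRNA, held 4.52%, 4.87% and 4.73% and overlapped neither of its neighbours in the ranking.

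The next places were close. let-7a-5p held 3.96% ± 0.263, miR-191-5p, found in many blood cells, held 3.68% ± 0.202, and miR-21a-5p, an miRNA with a known anti-apoptotic role, held 3.48% ± 0.305. The ranges of neighbours overlapped from let-7a-5p down to let-7c-5p (3.07% ± 0.153), with miR-93-5p at 3.12% ± 0.260 between miR-21a-5p and let-7c-5p. miR-25-3p (2.62% ± 0.0516) and miR-20a-5p (2.52% ± 0.308) followed, both from clusters of the miR-17-92 type. Of the 19 pairs of neighbours among the first 20, 9 stood in the same order in all 3 libraries and 7 did not overlap. The libraries shared 18 of the first 20, 48 of the first 50 and 95 of the first 100, while the exact rank of most did not separate beyond the spread.

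**Figure D1:**
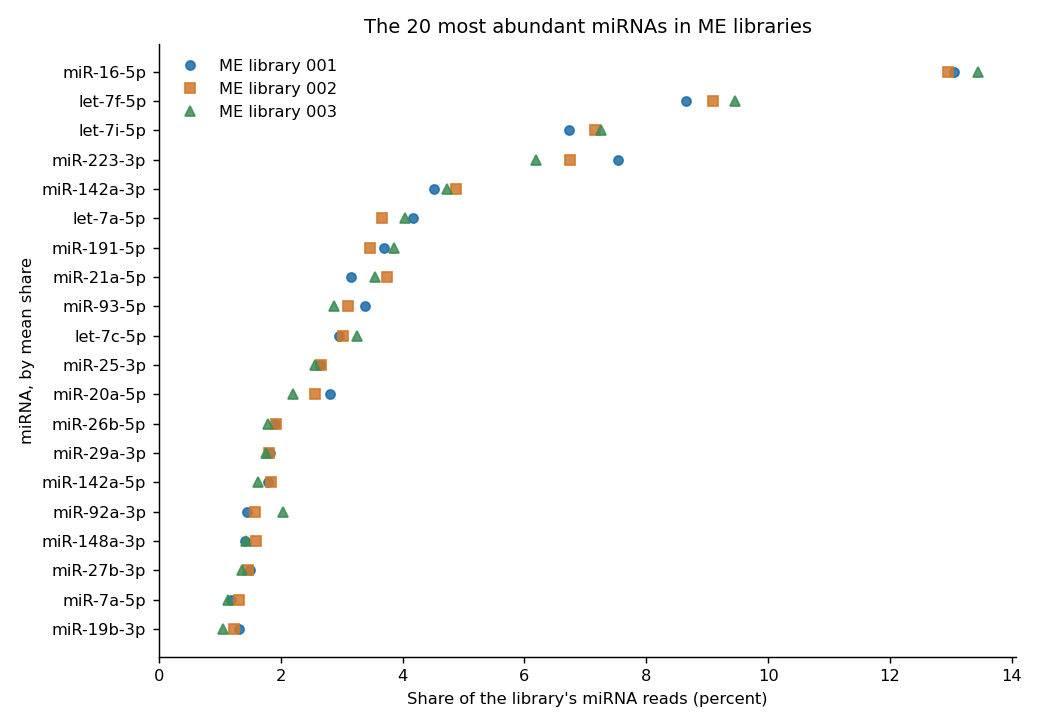
Share of the miRNA reads (x axis, percent) of the 20 most abundant miRNAs (y axis, ordered by mean share), with 1 symbol per ME library. miR-16-5p lies near 13.1% in all 3 libraries, and miR-223-3p is spread from 6.19% in library 003 to 7.54% in library 001.

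The lower places among the first 20 held miRNAs of several roles. miR-26b-5p (1.87% ± 0.0746) and miR-29a-3p (1.80% ± 0.0354), the second known for collagen and DNA methyltransferase targets, overlapped each other. miR-92a-3p, a member of miR-17-92, held 1.44%, 1.58% and 2.03%, and was highest in library 003. miR-148a-3p, known to target DNA methyltransferases, held 1.48% ± 0.103, and miR-27b-3p held 1.44% ± 0.0649. The last of the 20 were miR-7a-5p, known for targets in growth factor signalling, at 1.21% ± 0.0923, and miR-19b-3p, a member of miR-17-92, at 1.20% ± 0.137.

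Grouped by family name, 4 families held 50% of the reads and 20 held 90%. let-7, whose members differ by few bases outside the seed, was the largest with 26.2%, 26.4% and 27.5% of the reads in libraries 001, 002 and 003 (26.7% ± 0.710), and its range did not overlap that of any other family. The miR-15/16 family was second with 14.2% ± 0.183. miR-223 followed with 6.82% ± 0.680 and the miR-17 family, which holds miR-20a, miR-93 and the miR-106 pair, with 6.41% ± 0.622, and their ranges overlapped. The families of miR-142-3p (4.70% ± 0.177) and miR-25, with miR-92a, miR-32 and miR-363-3p (4.35% ± 0.261), came next. miR-26 (2.75% ± 0.0409), miR-29 (2.10% ± 0.0557), miR-148, with miR-152-3p (2.01% ± 0.109), and miR-146 (1.88% ± 0.0686), the last a brake on inflammatory signalling through TRAF6, completed the first 12 families with miR-191 and miR-21.

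**Figure D2:**
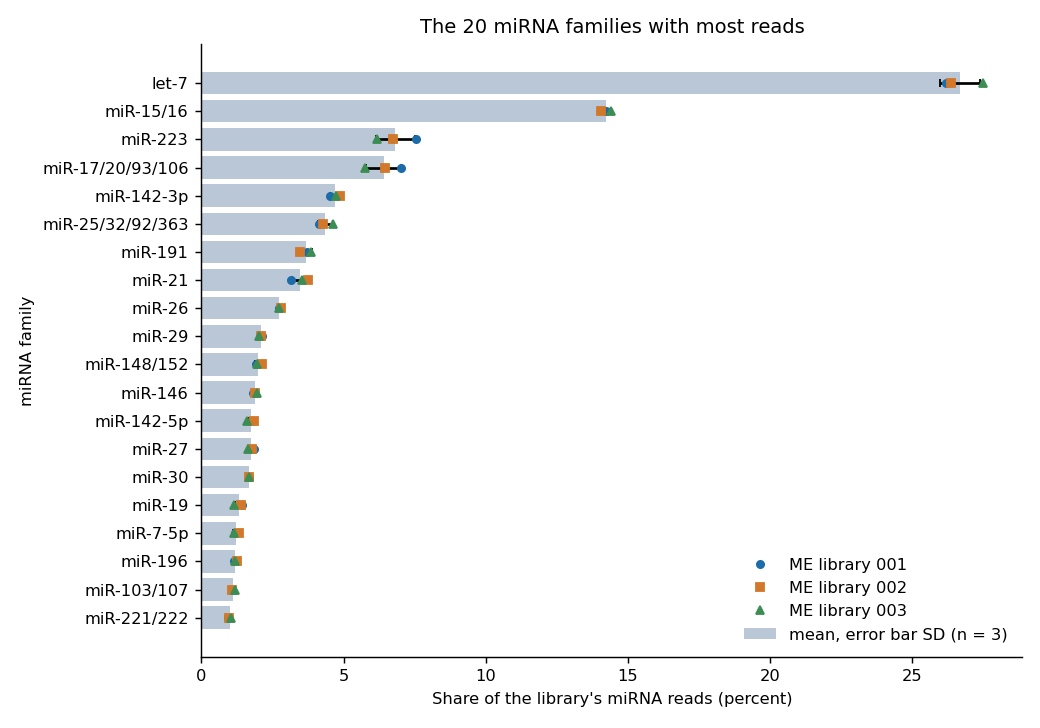
Share of the miRNA reads (x axis, percent) of the 20 families with the most reads (y axis). Bars are means and error bars SD over the 3 ME libraries, and symbols are single libraries. let-7 (26.7%) and miR-15/16 (14.2%) stand clear of the other families.

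Within let-7 the members were unequal. let-7f-5p made up 34.0% ± 0.839 of the family's reads, let-7i-5p 26.4% ± 0.741, let-7a-5p 14.8% ± 1.02 and let-7c-5p 11.5% ± 0.271. let-7g-5p (4.29%), let-7b-5p (4.22%) and let-7d-5p (2.90%) were minor, and let-7e-5p, at 0.0583%, had 2402 reads over the 3 libraries. let-7e-5p differs from let-7a-5p by U9G, let-7c-5p by A19G and let-7f-5p by G12A, with let-7a-5p's base first and positions counted from 1 at the 5′ end. Members that differ by 1 base can share reads in matching, which was not tested. One row of the family, let-7j, with 0.474% of the family's reads, has the seed GAGGUAU in place of GAGGUAG, and the miRNAs with GAGGUAG alone held 26.6% ± 0.715 of all reads.

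Other families were led by 1 member. miR-16-5p made up 92.4% of miR-15/16, with miR-322-5p (0.470% ± 0.0457 of all reads) and miR-15b-5p (0.422% ± 0.0576) far behind. miR-29a-3p made up 85.7% ± 0.621 of the miR-29 family, miR-29b-3p 11.6% ± 0.678 and miR-29c-3p 2.68% ± 0.0851. miR-148a-3p made up 73.8% ± 1.11 of the miR-148 family and miR-26b-5p 68.1% ± 1.98 of miR-26. The miR-146 family was nearer to equal, with 56.6% ± 0.525 miR-146b-5p and 43.4% ± 0.525 miR-146a-5p, which differ by G18A and U21C (base of miR-146a-5p first). In the miR-17 family miR-93-5p was first, and miR-17-5p itself held 5.74% ± 0.248 of its reads.

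The Hox-locus miRNAs were uneven as well. miR-196b, whose hairpin lies in an exon of a Hoxa9 transcript on chromosome 6, had 1.13%, 1.25% and 1.19% of the reads on its 5p strand, rank 21. It made up 99.8% of the miR-196 family, the rest being miR-196a-5p with 79 to 118 reads per library. miR-196a-5p differs from miR-196b-5p by 1 base, C12A with the base of miR-196b-5p first. Whether some of its reads came from miR-196b-5p was not tested. miR-10a-5p, next to the Hoxb genes, had 8657 to 10081 reads per library and rank 52, while miR-10b-5p, next to the Hoxd genes, had 9 to 16 reads. In both families 1 member carried nearly all of the reads.

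For 417 hairpin names both strands were listed, and 206 of them had at least 100 reads over the 3 libraries. A strand was called dominant when it had at least 90% of the reads of both strands in each library. The 5p strand was dominant in 74 names, the 3p strand in 57 and neither in 75. By reads of these names 65.2% belonged to 5p dominant names, 22.9% to 3p dominant names and 11.9% to names with neither dominant. Neither strand was dominant in 41 of the 75 names with 100 to 1000 reads, and in 2 of the 33 with at least 100000. A name with a mean above 90% was also counted as neither if 1 library fell short, such as miR-30b (90.8% ± 1.19 on 5p). Over all rows 69.6% ± 0.537 of the reads were 5p rows, 29.9% ± 0.527 were 3p rows and 0.486% ± 0.0220 had no strand in the name. The median share of the larger strand was 96.5%, and 99.1% among the 50 names with most reads.

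The 5p dominant names with most reads were miR-16, let-7f, let-7i, let-7a, miR-191, miR-21a, miR-93, let-7c, miR-20a and miR-26b. Their 3p strands had from 0.988% ± 0.157 (let-7a) down to 0.0243% ± 0.00340 (let-7c, 115 reads against 474694) of the reads of both strands. For let-7a and let-7c the only 3p rows were let-7a-1-3p and let-7c-1-3p, with none listed for the hairpins Mirlet7a-2 and Mirlet7c-2. Neither share thus covers all the gene copies that the 5p reads pool. The 3p dominant names with most reads were miR-223, miR-25, miR-29a, miR-92a, miR-148a, miR-27b, miR-19b, miR-103, miR-221 and miR-24. Their 5p strands had from 5.16% ± 0.899 (miR-92a) down to 0.00337% ± 0.00310 (miR-103, 5 reads against 151563). miR-223-5p, the strand that is usually discarded, had 11549 reads, and even so the 3p strand of miR-223 had 98.9% ± 0.138.

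Among names with no dominant strand, miR-142a had the most reads. Its 5p strand had 28.4%, 27.5% and 25.5% of the reads in libraries 001, 002 and 003, and both strands ranked among the first 15 miRNAs. miR-126a, an miRNA of stem cells and endothelium that lies in Egfl7, had 24.8%, 26.2% and 24.1% on the 5p strand, or 24166 reads in all against 72046 on the 3p strand. miR-181a, known for tuning antigen receptor signals in lymphocytes, had 56.2%, 55.7% and 57.7% on the 5p strand. In none of miR-142a, miR-126a and miR-181a did the leading strand change between libraries.

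The other names of the 10 with most reads leaned to one strand. miR-30e (88.5% ± 0.732), miR-425 (89.2% ± 1.20), miR-17 (77.8% ± 2.94) and miR-15b (71.3% ± 1.71) leaned to 5p. miR-27a (11.5% ± 2.79), miR-140 (16.7% ± 1.53) and miR-130b (17.9% ± 2.65) leaned to 3p, again as the 5p share. miR-425 lay near the limit of 90%, with 87.9%, 89.4% and 90.3%. In 4 pairs, miR-362, miR-669m, miR-212 and miR-369, the leading strand changed between libraries, and these had few reads (for example 756 and 753 for miR-362).

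**Figure D3:**
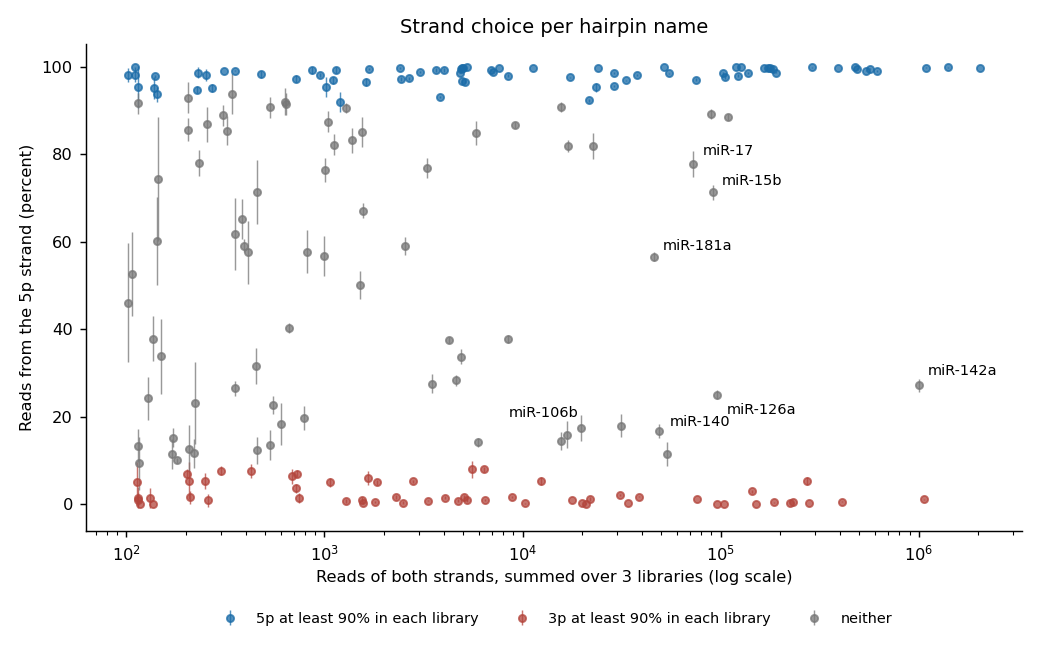
Share of the reads on the 5p strand (y axis, percent) against the reads of both strands (x axis, summed over 3 libraries, log scale) for the 206 hairpin names with at least 100 reads. Points are means, error bars SD over the 3 ME libraries, and colours show the 3 calls; most well-read names lie near 0 or 100, and miR-142a at 27.1% is the exception with the most reads.

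miR-106b is a case where the strand that names the family is the smaller one. Its 5p strand, which carries the seed AAAGUGC, had 3405 reads over the 3 libraries and its 3p strand 16315, so that 17.3% ± 3.01 lay on 5p. For miR-17, which has the same 5p seed, the 3p strand had 16060 reads and the 5p strand 56938. The strands of miR-17 and miR-181a show what distinguishes the rows, with capitals at the seed.
miR-17-5p: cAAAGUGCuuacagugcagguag
miR-17-3p: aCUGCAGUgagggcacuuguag
miR-181a-5p: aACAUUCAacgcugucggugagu
miR-181a-1-3p: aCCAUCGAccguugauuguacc
miR-181a-2-3p: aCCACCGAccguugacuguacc

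The first base of the 2 strands was counted next. Of 110 dominated pairs with both sequences in RefSeq, 75 of the larger strands (68.2%) and 21 of the smaller strands (19.1%) had U as first base. Among the miRNAs with a RefSeq sequence 443 (44.2%) begin with U, and they held 80.3% ± 0.276 of the reads with a sequence. C-starting miRNAs held 14.1% ± 0.470, A-starting 5.36% ± 0.301 and G-starting 0.254% ± 0.0118. A length of 22 bases accounted for 67.7% ± 0.325, 23 bases for 22.8% ± 0.375 and 21 bases for 8.88% ± 0.0599. These are lengths of the RefSeq entries, not of the reads. The 3 leading miRNAs, miR-16-5p, let-7f-5p and let-7i-5p, all begin with U and alone held 29.3% ± 0.870 of the miRNA reads. Argonaute proteins are known to favour U at the 5′ end, and a part of this in the shares was not tested.

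Some miRNAs have several gene copies with 1 identical main strand, so their reads cannot be given to a copy. The partner strand often differs, and 11 such pairs of partner strands had at least 100 reads. In 8 of these at least 80% of the partner reads came from 1 copy in each library. For miR-92a, the copy in miR-17-92 on chromosome 14 gave 99.9% ± 0.0571 of the partner reads (13866 against 18 for the copy on X). The copy of miR-19b in the same cluster gave 98.4% ± 1.18. The seeds of the miR-92a partner strands differ, as shown here.
miR-92a-1-5p: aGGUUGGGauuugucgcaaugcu
miR-92a-2-5p: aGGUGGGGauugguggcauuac
The copy on chromosome 1 gave 91.2% ± 1.07 of the miR-181a and 90.2% ± 0.501 of the miR-181b partner reads, both of which have their other copy on chromosome 2. miR-16-1, in the Dleu2 locus on chromosome 14, gave 87.5% ± 1.19 of the miR-16 partner reads, against 12.5% for miR-16-2 in Smc4. The pairs of miR-26a (73.2% ± 2.78 from copy 2), let-7f (63.7% ± 3.26 from copy 1) and miR-450a (64.1% ± 6.82 from copy 1) were more even. A partner strand's level depends on its own stability too, so these shares describe partner reads and not the transcription of the copies.

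**Figure D4:**
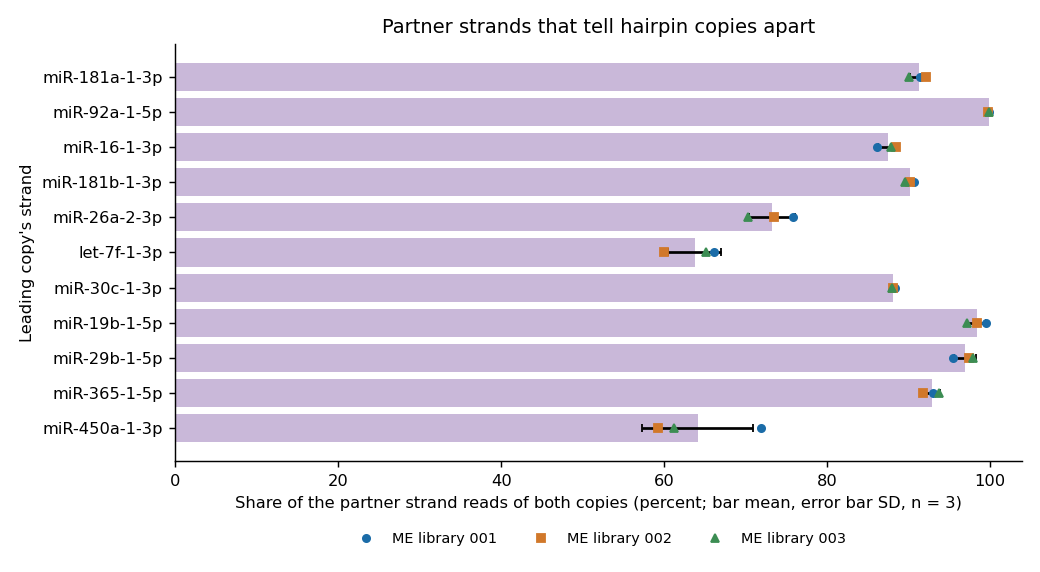
Share of the partner strand reads that came from the leading copy (x axis, percent) for 11 miRNAs with several gene copies (y axis, named by the leading copy's strand). Bars are means and error bars SD over the 3 ME libraries, and symbols are single libraries; miR-92a-1-5p is at 99.9% and let-7f-1-3p at 63.7%.

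Of the reads, 59.7% ± 0.781 belonged to miRNAs with a hairpin within 10 kb of another one on the same strand. The miR-17-92 cluster (chromosome 14, 115043671 to 115044506, in Mir17hg) held 6.25% ± 0.180 of the reads when miR-92a-3p and miR-19b-3p, which have a copy elsewhere, were counted in full, and 3.37% ± 0.344 from miRNAs with no other copy. With miR-92a-3p and miR-19b-3p counted in full at Mir92-1 and Mir19b-1, though their reads cannot be given to a copy, the hairpins of the cluster were unequal. They had Mir20a 2.53%, Mir92-1 1.77%, Mir19b-1 1.20%, Mir17 0.471%, Mir18 0.152% and Mir19a 0.129%, a range of 19.6-fold from Mir20a to Mir19a. The cluster of Mir25, Mir93 and Mir106b inside Mcm7 (chromosome 5, 138165321 to 138165818) held 5.89% ± 0.287, all from miRNAs with no other copy. There Mir93 (3.13%) exceeded Mir106b (0.128%) by 24.5-fold. The related cluster on X, from Mir363 to Mir106a, held 0.468% ± 0.0347 from miRNAs of its own, among which Mir20b led with 0.333%.

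Other clusters were also uneven. In Mir23b, Mir27b and Mir24-1, a cluster with known roles in blood vessels, Mir27b (1.44%) exceeded Mir23b (0.202%) by 7.16-fold. In Mir23a, Mir27a and Mir24-2 the range was 1.94-fold. Its upper end is Mir24-2 (0.671%), where miR-24-3p, which has a copy in each of these clusters, is counted in full. The 7 hairpins from Mir450b to Mir322 on X held 0.740% ± 0.0338, from 0.484% for Mir322 down to 0.00186% for Mir450-2. The cluster with the most hairpins, 70 from Mir466m to Mir669h on chromosome 2 inside a region of repeated hairpins, held 0.211% ± 0.0131, and its members are too alike for reads to be assigned with certainty. The cluster of Mirlet7d, Mirlet7f-1 and Mirlet7a-1 on chromosome 13 held 13.9% ± 0.428 if let-7f-5p and let-7a-5p are counted in full, and 0.836% ± 0.0484 from let-7d and the partner strands alone. miR-100-5p, whose gene shares a cluster with Mirlet7a-2, had 3 reads in all.

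The labelled cell type was checked against marker miRNAs. All 12 myeloid markers had at least 100 reads in every library, as did 248 of all 1184 miRNAs (20.9%). Together the 12 held 20.2% ± 0.584 of the reads (19.5% to 20.6%). The largest parts were miR-223-3p (6.82%), miR-142a-3p (4.70%), miR-21a-5p (3.48%) and miR-142a-5p (1.75%). Of these, miR-142a is known as a haematopoietic miRNA and not one of myeloid cells alone. Whether the other members of the list are particular to myeloid cells was not tested, so its sum is no measure of myeloid identity. miR-155-5p of this list, an inflammation and leukaemia miRNA, held 0.778% ± 0.0493. Of 13 stem and progenitor markers 12 reached 100 reads, and the list held 4.54% ± 0.0508. Most of that sum was miR-29a-3p (1.80%), miR-146b-5p (1.07%), miR-221-3p (0.904% ± 0.0492), which is known to target the KIT receptor, and miR-126a-3p (0.464%). The others were scarcer: miR-126a-5p ranked 56, miR-222-3p 77, miR-125b-5p 109, miR-125a-5p 154, miR-99a-5p 158, miR-130a-3p 162, miR-99b-5p 218, miR-193b-3p 234 and miR-100-5p 827. Of 8 lymphoid markers 7 reached 100 reads with a sum of 0.437% ± 0.0419, most of it miR-181a-5p and miR-181b-5p, which are also found in progenitors.

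The lists for other cell types had low sums. Of 5 erythroid markers 4 were listed and none reached 100 reads. The erythroid list summed to 0.000483% ± 0.000135 (0.000365% to 0.00063%), with miR-144-3p at 0 and miR-451a at 5 reads over the 3 libraries. The stromal and endothelial list summed to 0.0175% ± 0.000949, mainly miR-199a-3p (2485 reads), and miR-145a-5p had 1 read. That list did not hold miR-126a, an miRNA of endothelium as well as stem cells, which was counted with the stem and progenitor markers. miR-126a-3p held 0.464% and miR-126a-5p 0.155% of the reads, so the low sum does not cover all endothelial miRNAs. The epithelial list summed to 0.0284% ± 0.00110 with 4 of 7 markers at 100 reads. The liver, muscle and neural list summed to 0.228% ± 0.00887, of which miR-128-3p, also expressed in blood progenitors, gave 0.220%, and miR-122-5p had 123 reads over the 3 libraries.

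Spread between libraries was small but larger than counting error for well-read miRNAs. For the 254 miRNAs with a mean of at least 100 reads per library, the median coefficient of variation (CV) of the deposited signal was 9.59%. It was below 10% for 135 and below 20% for 242. In miRNAs with 100 to 1000 reads the median CV was 10.4% where counting error alone would give 5.86%, with 1000 to 10000 reads 8.86% against 2.03%, and from 10000 reads 7.21% against 0.454%. Over the 254 miRNAs the log2 signal of any pair of libraries correlated at r = 0.996 to 0.998 across miRNAs, which are not independent replicates, and no miRNA differed by more than 2-fold between any 2 libraries.

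Library 003 stood apart on the deposited signal and, less so, on shares. The signal is not scaled to a common total: summed over the miRNAs, that of library 003 differed on the log2 scale by -0.10 from 001 and by -0.11 from 002. It had the lowest signal for 138 of the 254 miRNAs (54.3%) and the lowest share for 102 (40.2%). On shares library 003 was also the highest for 94, while 001 was the lowest for 86 and the highest for 103. Its median log2 difference in signal was -0.11 from each of the other two, and on shares it was -0.01 from 001 and 0.00 from 002, so the median shift went with the totals. The median CV was 9.59% on the signal and 8.72% on shares. It was 5.53% and 5.51% without library 003, 8.29% and 7.34% without 001, and 9.38% and 8.76% without 002. A CV with a library left out rests on fewer libraries, so it is not on a par with that from all of them.

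Differences between libraries, that of 001 and 002 among them, varied in part with the base composition of the miRNAs, as a description with no test. Across 217 miRNAs with a RefSeq sequence, the log2 ratio of library 003 to 002 correlated with GC content at r = 0.529, a value that scaling does not alter, the ratio of 003 to 001 at 0.267 and that of 002 to 001 at -0.270. The last was nearer to 0, at -0.133, for miRNAs with at least 1000 reads. On shares, the 46 miRNAs below 40% GC had a median log2 difference of -0.09 in library 003 against 002, and the 44 with at least 55% GC had 0.21. For library 003 against 001 these medians were -0.07 and 0.11, and for 002 against 001 they were 0.07 and -0.10. Library 003 had the lowest share for 26 of the 46 and the highest for 30 of the 44. The part of base composition in the spread was not tested.

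Single miRNAs went both ways. miR-20a-5p and miR-19b-3p, both of 39.1% GC, were lowest in library 003, with signals of 33961, 31116 and 24814 for miR-20a-5p and 15844, 15045 and 11815 for miR-19b-3p in libraries 001, 002 and 003. miR-92a-3p, of 57.1% GC, was highest there, with 17416, 19264 and 22917. miR-93-5p, of 52.2% GC, was lowest in library 003 all the same, with 40922, 37699 and 32380, and let-7f-5p, of 31.8% GC, was not, with 104443, 110641 and 106793. These 5 were chosen after their values were seen.

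The 10 largest CVs of the signal belonged to miRNAs of rank 118 (miR-671-5p) to 252 (miR-147-3p). Some were the smaller strand of their pair, such as miR-15a-3p and let-7i-3p, and others the larger, such as miR-501-3p and miR-671-5p. miR-501-3p had signals of 24.6, 26.7 and 42.0 in libraries 001, 002 and 003 (CV 30.5%), miR-147-3p 28.8, 26.7 and 15.9 (29.1%), miR-15a-3p 38.0, 31.1 and 21.3 (27.8%) and let-7i-3p 206.8, 153.6 and 126.2 (25.3%). Library 003 was the highest for miR-501-3p and the lowest for the other three. miR-466k, let-7f-2-3p, miR-671-5p, miR-467d-5p, miR-1843a-5p and miR-29a-5p completed the first 10, with CVs from 20.6% to 22.4%. On shares 5 of these 10 were still among the 10 largest, with miR-501-3p first at 35.1%.

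The smallest CVs of the signal were those of miR-467d-3p (0.303%), miR-345-3p (1.28%), miR-181c-3p (1.41%), miR-96-5p (1.45%) and let-7b-5p (1.53%). These turned with the scaling: none of the 5 was among the 5 smallest on shares, where let-7b-5p had 4.98% and miR-193b-3p was smallest at 0.450%. miR-467d-3p, miR-345-3p, miR-181c-3p and miR-96-5p lay below their counting error, as did 27 of the 254 miRNAs, while let-7b-5p lay above its counting error of 0.415%.

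**Figure D5:**
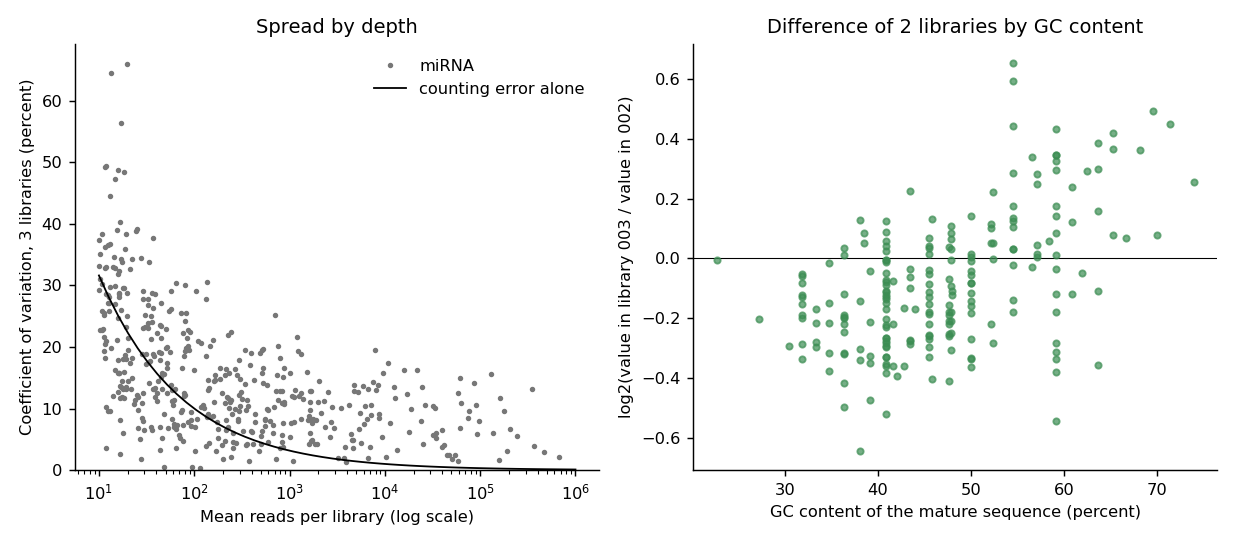
Left, coefficient of variation over the 3 ME libraries (y axis, percent) against mean reads per library (x axis, log scale), with the curve that counting error alone gives. Right, log2 ratio of the signal in library 003 to that in library 002 (y axis) against the GC content of the mature sequence (x axis, percent). Points rise to the right (r = 0.529, 217 miRNAs), and this pair of libraries had the largest r.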

How the data were processed

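The authors deposited 1 table for all libraries, with a signal that the file headers call CPM. The ME columns of this deposited signal sum to 1.13342e+06 to 1.22036e+06, so it is not plain CPM. In each ME library 100% of the values were whole multiples of the smallest one (tolerance 0.001), and reads were recovered by division. Library preparation used a QIAseq kit for miRNAs, per the labels' protocols, on total RNA from a Norgen single-cell kit. The build is GRCm38, per the submitters' processing notes. Which aligner, counter and miRNA reference were used, and whether molecular identifiers were collapsed, is not given in the sources used here.

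Shares are percentages of a library's miRNA reads, and CVs are of the deposited signal unless shares are named. No comparison between groups was made, so no count model was fitted. Hairpin loci and host genes are from GENCODE M21, and sequences from RefSeq. Names were those of the 20 most abundant miRNAs, the leading members of the 12 largest families, the leading names per strand call, the largest and smallest CVs, the marker lists and the largest clusters. Members, lists and rules were chosen with earlier results of these data known. Partner strands of gene copies, base differences, GC content, the Hox-locus miRNAs and miR-106b were added after values were seen. The floor for a count of 0 was 3 reads. The code was tested on simulated data. Tools were Python 3.11.15, numpy 2.4.6, pandas 2.3.3, scipy 1.17.1 and matplotlib 3.10.9. Alternatives were other read minimums, strand limits, cluster distances, denominators and each library left out.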

Additional observations from a re-analysis of the deposited data

Results flagged for a closer look

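Rows annotated as piRNAs, which are outside the miRNA measurement, also held reads. They took 0.337% ± 0.0225 of the reads of the ME libraries (0.317% to 0.361%, n = 3), or 16555 to 18451 reads per library, summed over 268 rows. The 3 libraries are too few for a search for single outlying samples.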

How the results depend on the processing

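No paired analysis was possible because no groups were compared and the columns carry no replicate numbers. Over all alternatives 88 values stayed within the spread or within 1.5 times and 16 moved. Leaving out each library in turn gave a median CV of 5.53% to 9.38% (5.53% without library 003), 788 to 807 detected miRNAs and 26.3% to 26.9% for let-7. The median CV was 29.8% without a read minimum and 8.72% on shares. A minimum of 10 reads per library left 438 detected miRNAs, and with piRNA reads in the total the first 20 miRNAs held 75.4%. For 80% of the reads 24 miRNAs were needed, and for 95% 59. At a limit of 99% there were 27 5p dominant and 20 3p dominant names. Names with neither strand dominant numbered 39 at a limit of 80%, 159 at 99%, 126 at 20 reads, 34 at 1000 reads and 195 at 1 read in each library. Clusters within 50 kb held 61.0% of the reads. The minimums for GC content and gene copies, and the other spread values on shares, were chosen after seeing the data: at 1000 reads 4 of 6 copy pairs kept 80% in 1 copy, and r with GC for library 003 against 002 was 0.425 at 20 reads and 0.50 at 1000, while that for 002 against 001 was -0.184 and -0.133. The causes of these shifts were not tested.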

Other observations

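miRNA names numbered 1000 or above made up 598 of the 1184 listed miRNAs. The one with the most reads, miR-5099, held 0.140% ± 0.0125 of the reads and was rank 59. miRNAs with a single hairpin gene in GENCODE held 62.8% ± 1.01 of the reads and those with several 37.2% ± 1.01. Of the single-gene miRNAs, those inside an exon of another annotated transcript held 38.3% ± 0.628 of all reads, those in an intron 15.9% ± 0.339 and those in neither 8.54% ± 0.127.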
